A study of Bos taurus with 6 samples.

Results

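ANKRD1, DLC1 and genes of the Hippo-YAP pathway were examined in cumulus cells of cattle, the layers of somatic cells around the oocyte in an ovarian follicle. The set had 10 named genes: ANKRD1, DLC1, CCN1, CCN2, AMOTL2, AMOTL1, YAP1, WWTR1, LATS2 and TEAD1. A gene was read from every probe set that carries its symbol, and no other symbol, in the platform annotation. By that rule 4 of the 10 genes were measured, with 5 of the 24016 probe sets tested: ANKRD1 by 2 probe sets and DLC1, CCN1 and CCN2 by 1 each. AMOTL2, AMOTL1, YAP1, WWTR1, LATS2 and TEAD1 had no such probe set and were not analysed here. ANKRD1 and DLC1 were chosen by their measured log2 difference between the groups in these same arrays, so their values are given as a description with no test. CCN1 and CCN2 were chosen for their place in the pathway, and were tested. The question was whether other targets of YAP follow ANKRD1 when large follicles are set against small ones.

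Cumulus cells of large follicles came from follicles of at least 8 mm, which the submitters call competent, and were hybridised to 3 arrays. Cumulus cells of small follicles came from follicles of 1 to 3 mm, called incompetent, and were hybridised to another 3. Ovaries of both groups came from slaughtered crossbred Bos indicus x Bos taurus cows, and cells were stripped by pipetting from compact complexes and pooled before RNA extraction. The number of cows or complexes in a pool is not known here. A p-value therefore weighs the group difference against the spread between pools, not between cows. In such bulk samples, fewer cells of a type and less RNA per cell cannot be told apart.

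YAP (gene YAP1) and its relative TAZ (gene WWTR1) are transcriptional coactivators that bind DNA through TEAD factors. The Hippo kinases, MST (STK3 and STK4) and LATS, phosphorylate YAP and hold it in the cytoplasm, and stretch and cell spreading favour its entry into the nucleus. In the ovary the pathway is known for its part in follicle growth after tissue is cut or stretched. ANKRD1, CCN1 and CCN2 are the targets most often read as a measure of YAP activity. DLC1 is a GTPase-activating protein that binds to focal adhesions and is lost in many tumours.

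The arrays were alike in scale, with median log2 signals between 5.64 and 5.68, and no array stood apart (Pearson correlation over probe sets 0.9927 to 0.9948 within groups and 0.9817 to 0.9879 across groups). Granulosa and cumulus markers were mostly bright. Of the 11 measured, 6 rose and GATM fell, so 63.6% were called, where 15.4% of all 9155 named genes were. FSHR, the FSH receptor, averaged 8.35 ± 0.11 in large-follicle arrays and 7.79 ± 0.21 in small-follicle arrays (log2 signal, SD, n = 3 each). The 11 markers averaged 10.90 to 11.04 per large-follicle array and 10.34 to 10.50 per small-follicle array. FOXL2, a defining granulosa factor, was dim on these arrays, at 4.89 and 4.58, below the median of probe set means of 5.67. As a sign of RNA quality, the signal of 3' minus 5' probe sets over 6 bovine control transcripts was 1.98 ± 0.19 in large-follicle arrays and 2.46 ± 0.27 in small-follicle arrays (log2, SD, n = 3 each). It was lower in every large-follicle array than in any small-follicle array (2-sided exact permutation p = 0.1, which is the lowest possible with 3 arrays against 3). Without this index in the model, limma called 1374 probe sets higher (5.72%) and 1720 lower (7.16%). With the index as a covariate it called 99 and 116, so the calls of pathway genes are given with that fit beside them. Because the index separates the groups fully, that fit cannot tell it apart from follicle size, and it can widen the SE. For the brighter ANKRD1 probe set the SE was 0.25 without the index and 0.42 with it, and for CCN2 0.23 and 0.39. A call can thus be lost in that fit while the difference stays or grows. Whether a lost call reflects RNA quality was not tested. Calls of cell type markers come from the fit without the index.

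ANKRD1, a nuclear ankyrin repeat protein best known from stretched heart muscle, was far brighter in cumulus cells of large follicles. Its brighter probe set read 9.95, 9.67 and 10.53 log2 units in large-follicle arrays, against 6.56, 7.28 and 6.67 in small-follicle arrays. The lowest large-follicle array lay well above the highest small-follicle array. Groups that did not overlap, by any margin, were found in 30.9% of all probe sets. The means were 10.05 ± 0.44 and 6.84 ± 0.39 (SD, n = 3 each), a difference of 3.21 ± 0.25 (SE) or 9.27-fold. The dimmer probe set read 5.92, 6.16 and 6.50 in large-follicle arrays, against 3.87, 4.53 and 3.49 in small-follicle arrays. It showed the same order of the groups at a smaller size, 2.23 ± 0.26 (SE) or 4.69-fold. Its small-follicle mean, 3.96 ± 0.53 (SD, n = 3), lay close to the lower quartile of all probe set means, 3.83.

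DLC1 read 6.51, 6.68 and 7.31 log2 units in large-follicle arrays, against 2.57, 2.49 and 4.16 in small-follicle arrays. The groups did not overlap, and small-follicle replicate 3 lay well above the other small-follicle arrays. The means were 6.83 ± 0.42 and 3.07 ± 0.94 (SD, n = 3 each), a difference of 3.76 ± 0.42 (SE) or 13.5-fold. Of all 24016 probe sets, DLC1 had the 2nd highest difference and the ANKRD1 probe sets the 5th and the 16th. The small-follicle mean of DLC1 lies under that quartile, and the size of its fold is less certain than that of the brighter ANKRD1 probe set. The covariate fit moved the difference of DLC1 to 2.68.

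**Figure D1:**
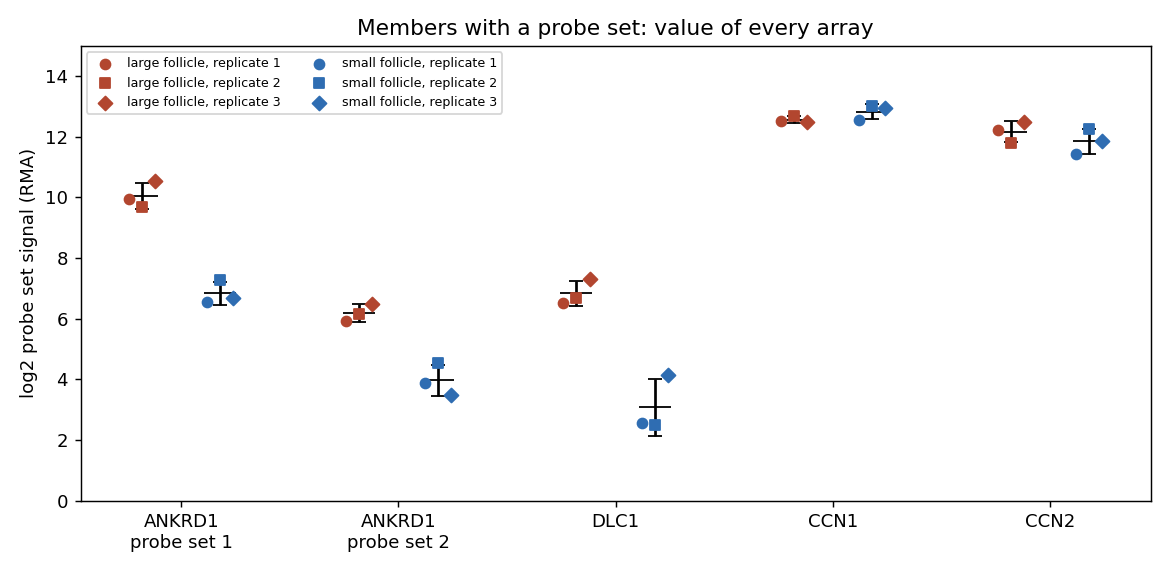
Log2 signal of the 5 measured probe sets of ANKRD1, DLC1, CCN1 and CCN2 on each of 6 arrays, large follicle left of small follicle for each probe set, with points for arrays and bars for the mean and SD (n = 3 per group). ANKRD1 and DLC1 show separate groups (9.67 to 10.53 against 6.56 to 7.28 for the brighter ANKRD1 probe set), while CCN1 and CCN2 overlap between 11.44 and 13.01.

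CCN1 and CCN2, the secreted matrix proteins also known as CYR61 and CTGF and the standard companions of ANKRD1 as YAP targets, did not pass the test. Over all probe sets, limma with Benjamini-Hochberg adjustment called 12.9% at 0.05, and neither of these 2 was among them. CCN1 read 12.51, 12.70 and 12.49 in large-follicle arrays, against 12.54, 13.01 and 12.95 in small-follicle arrays. The groups overlapped, and the sign was opposite to that of ANKRD1. The difference was -0.27 ± 0.14 (SE), with a 95% interval of -0.59 to 0.06 (limma, adjusted p = 0.277). In the covariate fit it was -0.55 with an interval of -1.01 to -0.08, and without small-follicle replicate 1 it was -0.41 with an interval of -0.68 to -0.14. Both of these intervals leave out 0, although neither fit called CCN1 (adjusted p = 0.194 and 0.0765). Without small-follicle replicate 2 the difference was -0.18, with an interval of -0.54 to 0.18.

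CCN2 read 12.22, 11.81 and 12.48 in large-follicle arrays, against 11.44, 12.27 and 11.86 in small-follicle arrays. The 2 groups were interleaved: small-follicle replicate 2 exceeded large-follicle replicates 1 and 2. The difference was 0.31 ± 0.23 (SE), with a 95% interval of -0.22 to 0.84 (limma, adjusted p = 0.450). With single arrays left out the difference of CCN2 ran between 0.11 (without small-follicle replicate 1) and 0.52 (without small-follicle replicate 2), where the interval was 0.01 to 1.03. In the covariate fit it was 0.39 with an interval of -0.54 to 1.31. These intervals do not show that CCN1 or CCN2 stayed level. Both transcripts were abundant in each group: 0.64% of probe sets had a higher mean than CCN1 and 1.27% a higher mean than CCN2. CCN1 and CCN2 stayed uncalled in all 16 alternatives, with adjusted p between 0.0765 and 0.584 for CCN1 and between 0.218 and 0.813 for CCN2. The third measured gene of the CCN family, CCN5, read 4.27 ± 0.07 in large-follicle arrays and 4.17 ± 0.06 in small-follicle arrays (SD, n = 3 each) and was not called either.

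Other YAP and TEAD targets were read from a list of 21 genes besides ANKRD1, of which 13 had a probe set, CCN1 and CCN2 included. Each gene was read from its brightest probe set, and the list was chosen with earlier results of these data known. NT5E, F3 and GADD45A rose, ARHGEF17 fell, and 9 did not pass, so 30.8% of the 13 were called, where 15.4% of all 9155 named genes were (7.08% higher and 8.3% lower). The differences were positive in 10 of the 13, beside 52.32% of all probe sets, and their median was 0.32, beside 0.01 over all probe sets.

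NT5E, the cell surface nucleotidase CD73 that makes adenosine, read 8.44, 8.17 and 8.04 in large-follicle arrays, against 6.27, 6.86 and 6.37 in small-follicle arrays. The groups were well apart, and the rise was 1.72 ± 0.17 (SE), 3.29-fold (limma, adjusted p = 0.00138). Its second probe set rose by 1.30 (adjusted p = 0.00359). NT5E was called under each of the 16 alternatives, the covariate included (adjusted p = 0.0467).

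F3, the tissue factor that starts blood clotting, read 7.35, 6.72 and 7.60 in large-follicle arrays, against 5.02, 6.18 and 5.63 in small-follicle arrays. It rose by 1.61 ± 0.31 (SE), 3.06-fold (limma, adjusted p = 0.0129). GADD45A, a stress-induced growth arrest protein, read 7.68, 7.57 and 7.26 in large-follicle arrays, against 6.95, 7.07 and 6.72 in small-follicle arrays. It rose by 0.59 ± 0.14 (SE, limma, adjusted p = 0.0302), with the groups apart by a narrow margin. ARHGEF17, a guanine nucleotide exchange factor, went the other way, at 6.83, 6.47 and 6.57 in large-follicle arrays, against 7.90, 7.49 and 7.75 in small-follicle arrays. It fell by 1.09 on the log2 scale (limma, adjusted p = 0.00301).

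Among the targets that did not pass, CCDC80, a secreted matrix protein, differed by 1.05 (adjusted p = 0.134) and CRIM1, a membrane protein that binds BMPs, by 0.64 (adjusted p = 0.0715). All 4 probe sets of CRIM1 had positive differences, of 0.42 to 0.85, and 2 of the 3 dimmer ones were called, at 0.85 and 0.42 (adjusted p = 0.0309 and 0.0485). In the covariate fit these 2 read 0.24 and 0.31 (adjusted p = 0.538 and 0.395) and the brightest read 0.08. The brightest was called in 1 alternative, quantile normalization (0.65, adjusted p = 0.0494). The probe set at 0.42 lost its call in each leave-one-out fit (0.32 to 0.50), and that at 0.85 without large-follicle replicate 2 (0.63) or 3 (0.88) or small-follicle replicate 1 (0.77) or 2 (0.80). ASAP1, NUAK2, TGFB2 and MYOF had differences of 0.11 to 0.34, and IGFBP3 had -0.37 with the widest interval of the list, -1.71 to 0.97. In the covariate fit, F3 (adjusted p = 0.147), GADD45A (0.126) and ARHGEF17 (0.0956) were no longer called, although their differences of 1.72, 0.78 and -0.91 kept their sign. GADD45A also lost its call without large-follicle replicate 1 (0.50) or 2 (0.56) and without small-follicle replicate 1 (0.61), 2 (0.67) or 3 (0.49).

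The factors that carry YAP to DNA were represented by TEAD2, TEAD3 and TEAD4 of a list of 10 genes. None passed the test, which 15.4% of all named genes did. TEAD3 averaged 5.67 ± 0.27 in large-follicle arrays and 5.12 ± 0.17 in small-follicle arrays (SD, n = 3 each). Its difference of 0.55 lay just outside the threshold (limma, adjusted p = 0.0504). TEAD4 differed by 0.33 (adjusted p = 0.0837) and TEAD2 by -0.08 (adjusted p = 0.749).

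The kinase arm of the pathway gave no call among its 7 measured genes of 16 when read from the brightest probe set, and its median difference was -0.08. Of all named genes 15.4% were called, so with 7 genes the absence of a call says little. LATS1, at 3.81 and 3.61, and MAP4K3, at 2.33 and 2.47, lay under the lower quartile of probe set means, 3.83. TAOK3, at 3.85 and 4.19, lay close to it. STK4, or MST1, had the largest difference of the 7, at 6.13 ± 0.23 in large-follicle arrays and 6.55 ± 0.08 in small-follicle arrays (SD, n = 3 each), -0.41 (adjusted p = 0.0788). TAOK3, which activates MST kinases, differed by -0.34 (adjusted p = 0.195), and LATS1, which phosphorylates YAP, by 0.20 with a 95% interval of -0.24 to 0.64. STK3, or MST2, differed by -0.08 at its brighter probe set. The dimmer one read 0.35 (adjusted p = 0.0498), which 12 of 15 alternatives did not call, each leave-one-out fit among them (0.29 to 0.39).

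Junction and polarity scaffolds, which tie YAP and LATS to cell contacts, had 5 of 15 listed genes measured. WTIP, a LIM protein of the Ajuba family, whose members restrain LATS, read 5.37, 5.21 and 5.23 in large-follicle arrays, against 6.36, 6.24 and 6.36 in small-follicle arrays. The spread within each group was small, and WTIP fell by 1.05 (limma, adjusted p = 0.00107), a call kept in all 16 alternatives, the covariate included (adjusted p = 0.0466). LIN7C, a polarity scaffold, rose by 0.38 (adjusted p = 0.0454). That call was lost in each leave-one-out fit (0.33 to 0.44) and with the covariate (0.45, adjusted p = 0.202). PALS1, a partner of LIN7C, differed by 0.06 at its brighter probe set and by -0.54 at the dimmer one (adjusted p = 0.0249). The call of the dimmer one was lost with the covariate (-0.44, adjusted p = 0.279) and without large-follicle replicate 1 (-0.55), 2 (-0.53) or 3 (-0.56) or small-follicle replicate 2 (-0.42), and the sign of the brighter one turned in 3 alternatives. TJP1 and CTNNA1, of the tight and adherens junctions, each differed by 0.01 in size.

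**Figure D2:**
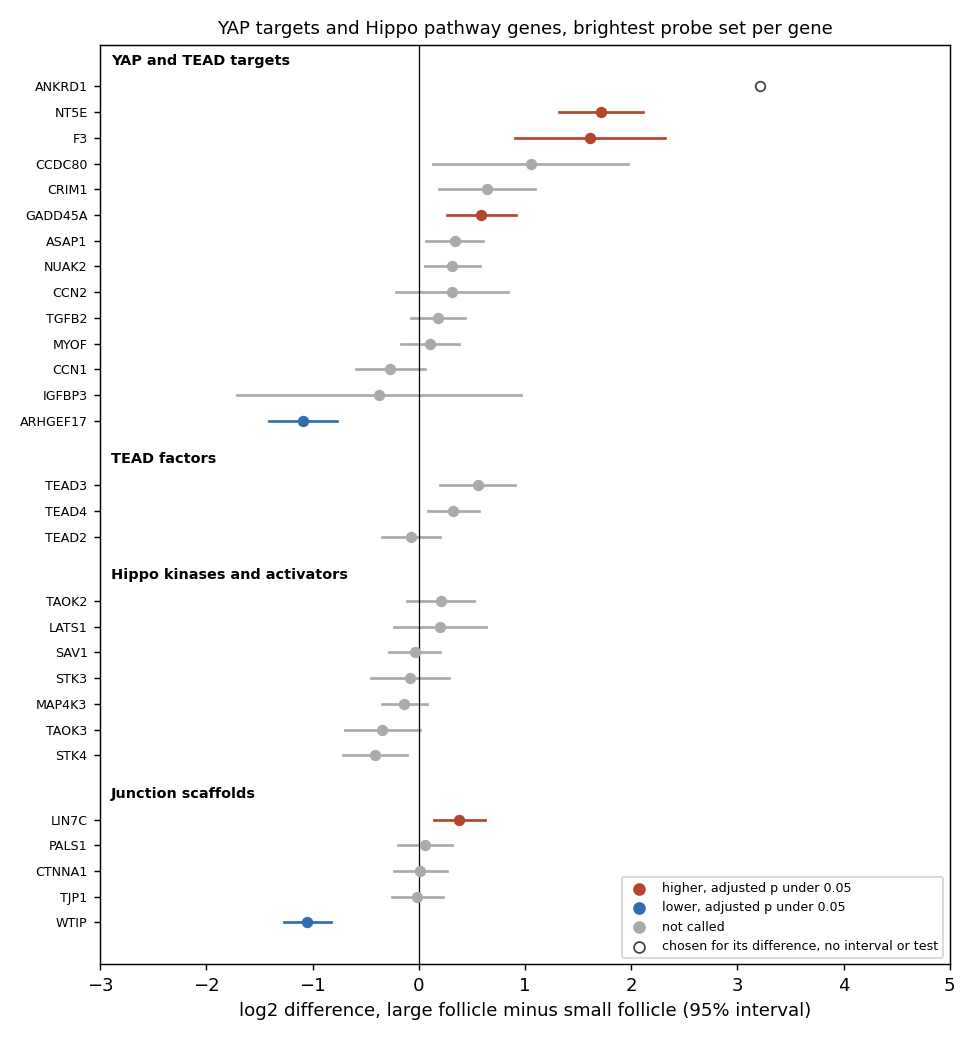
Log2 difference (large follicle minus small follicle) with its 95% interval for each measured YAP target, TEAD factor, Hippo kinase and junction scaffold, read from the brightest probe set and coloured by the call in limma. ANKRD1, an open circle with no interval, stands at 3.21, beyond every tested target, and CCN1 and CCN2 straddle 0.

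DLC1 is one of a family of GTPase-activating proteins, and 8 of 14 others on the list were measured. ARHGAP18 and ARHGAP1 rose, none fell, and the median difference of the 8 was 0.19. The 2 calls are 25% of the list, beside 15.4% of all named genes. ARHGAP18, which acts downstream of YAP in medaka fish, read 7.60, 6.69 and 6.47 in large-follicle arrays, against 4.85, 4.71 and 4.93 in small-follicle arrays. It rose by 2.09 ± 0.26 (SE), 4.26-fold (limma, adjusted p = 0.00268), with large-follicle replicate 1 the highest. ARHGAP1, which acts mainly on CDC42, rose by 0.37 at its brightest probe set (adjusted p = 0.0326). Its dimmer probe sets differed by -0.03 and -0.31, neither called (adjusted p = 0.897 and 0.195). STARD13, a close relative of DLC1, differed by 0.24 with a 95% interval of -0.01 to 0.50 (adjusted p = 0.205), and ARHGAP10 by 0.25 (adjusted p = 0.157). With the covariate, ARHGAP18 read 2.35 (adjusted p = 0.0585) and ARHGAP1 0.35 (adjusted p = 0.245). ARHGAP1 also lost its call without large-follicle replicate 1 (0.35) or 2 (0.35) and without small-follicle replicate 1 (0.38), 2 (0.35) or 3 (0.38).

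Focal adhesion genes, which include tensins and other binding partners of DLC1, had 12 of 16 members measured, with 1 higher, 1 lower and a median of 0.04. The share called, 16.7%, was close to the 15.4% of all named genes, so the list as a whole gave no result. FERMT2, or kindlin-2, an activator of integrins, rose by 0.42 (adjusted p = 0.0381), and its second probe set by 0.52 (adjusted p = 0.0346). PTK2, the focal adhesion kinase FAK, fell by 0.44 (adjusted p = 0.0379). VCL, or vinculin, which couples adhesions to actin, differed by 0.36 at its brighter probe set (adjusted p = 0.0881) and by -0.88 at the dimmer one (adjusted p = 0.0658), neither called. TNS1, a tensin, differed by 0.29 (adjusted p = 0.125). The brighter FERMT2 probe set was not called in any leave-one-out fit (0.33 to 0.48), and the second one was called in 1 of them, without large-follicle replicate 1 (0.64, adjusted p = 0.0219), with 0.41 to 0.55 in the others. PTK2 was not called without large-follicle replicate 1 (-0.43) or 2 (-0.37) or small-follicle replicate 1 (-0.40) or 2 (-0.42). With the covariate, adjusted p was 0.438 and 0.418 for the FERMT2 probe sets and 0.434 for PTK2.

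SRF and its MRTF coactivators read actin tension alongside YAP, and 12 of 16 genes of that list were measured. TAGLN, CNN1 and TAGLN2, which bind actin, rose, none fell, and the median was 0.37. The 3 calls are 25% of the list, beside 15.4% of all named genes, and 10 of 12 differences were positive, beside 52.32% of all probe sets. TAGLN read 6.73, 7.43 and 7.56 in large-follicle arrays, against 4.98, 5.45 and 6.29 in small-follicle arrays, and rose by 1.67 ± 0.33 (SE), 3.18-fold (limma, adjusted p = 0.0152). CNN1, or calponin, rose by 0.66 (adjusted p = 0.00417) and TAGLN2 by 0.52 (adjusted p = 0.0199). ACTA2, smooth muscle actin, differed by 0.75 (adjusted p = 0.0797), FHL2 by 0.44 (adjusted p = 0.100) and SRF itself by 0.33 (adjusted p = 0.131). With the covariate the difference of TAGLN was 0.62 (adjusted p = 0.28), that of CNN1 0.77 (0.0606) and that of TAGLN2 0.39 (0.264). TAGLN was not called without large-follicle replicate 2 (1.57) or small-follicle replicate 2 (1.61), nor TAGLN2 without large-follicle replicate 1 (0.49) or 3 (0.52) or small-follicle replicate 1 (0.46) or 2 (0.49).

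**Figure D3:**
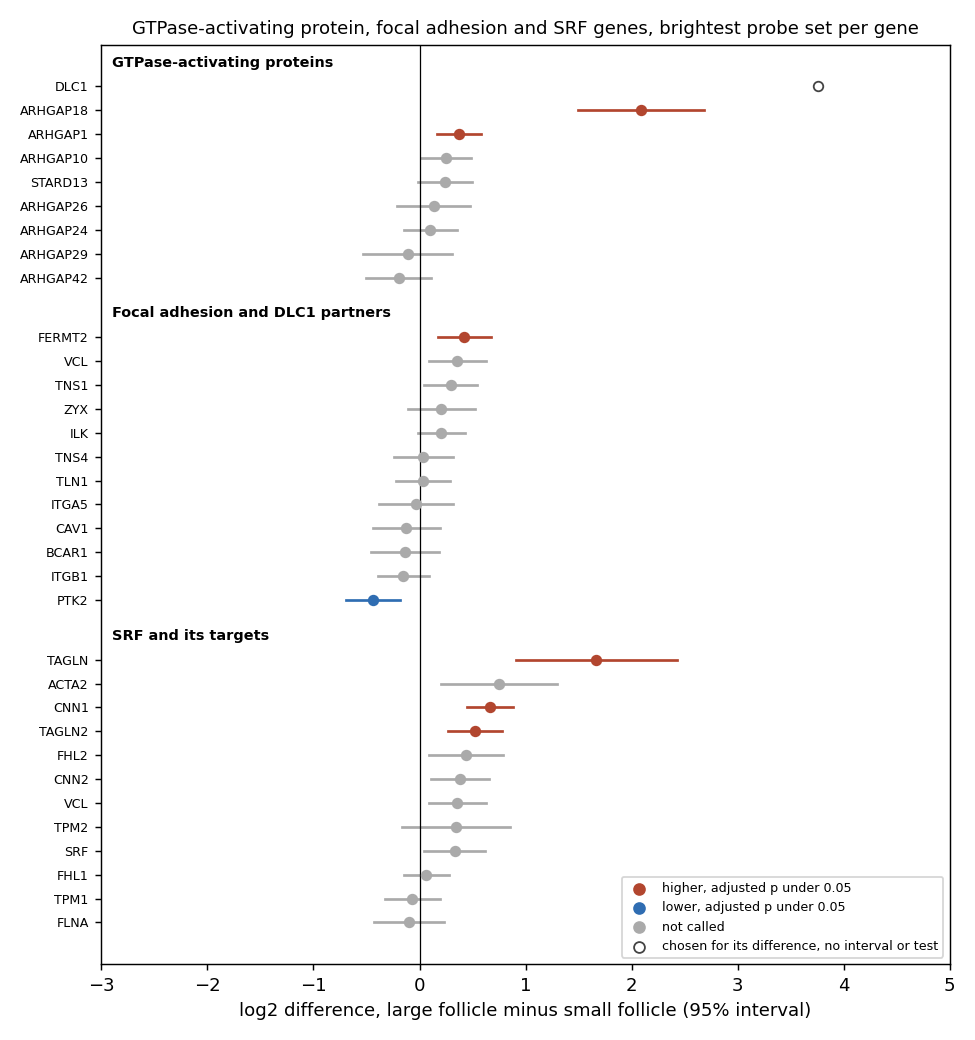
Log2 difference (large follicle minus small follicle) with its 95% interval for each measured gene of the GTPase-activating protein, focal adhesion and SRF lists, from the brightest probe set, coloured by the call in limma. DLC1, an open circle with no interval, stands at 3.76, and ARHGAP18 follows at 2.09. Most other intervals of the GTPase-activating protein and focal adhesion lists include 0. Most intervals of the SRF list lie above 0, although only TAGLN, CNN1 and TAGLN2 were called there.

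Over all pathway lists counted together, 71 of 130 genes other than ANKRD1 and DLC1 were measured. Limma called 12 of them higher and 5 lower, 23.9% of the 71 against 15.4% of all named genes, and their median difference was 0.13. In the covariate fit, 1 was higher (NT5E) and 1 lower (WTIP). The number called higher was 7 without large-follicle replicate 1, 6 without large-follicle replicate 2, 6 without small-follicle replicate 1, 6 without small-follicle replicate 2 and 7 without small-follicle replicate 3.

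ANKRD1 and several of these genes are also made by muscle, stromal or blood cells, so markers of such cells were read beside them. Of 7 measured smooth muscle markers, 2 rose (CNN1 and TAGLN, which the SRF list also holds, as it does ACTA2) and none fell. The share called was 28.6%, beside 15.4% of all named genes. The mean of the 7 was 6.28 to 6.72 in large-follicle arrays and 6.08 to 6.15 in small-follicle arrays, so the groups did not overlap. That mean leans on TAGLN, which differed by 1.67. Differences were positive in 5 of the 7, with a median of 0.19. MYH11, the smooth muscle myosin, read 9.35 ± 0.43 in large-follicle arrays and 9.73 ± 0.62 in small-follicle arrays (SD, n = 3 each) and was not called. Of 8 striated muscle markers, ACTA1 and CKM rose and MYH7 fell, 37.5% of the list. Their mean was 6.89 to 6.96 in large-follicle arrays and 6.54 to 6.76 in small-follicle arrays, again without overlap. It leans on ACTA1, which differed by 1.21. Differences were positive in 5 of the 8, with a median of 0.17. In small-follicle replicates 1, 2 and 3 the smooth muscle mean was 6.11, 6.08 and 6.15, and the striated mean 6.73, 6.54 and 6.76. Single markers differed in order there: ACTA2 read 5.22, 6.10 and 5.67, and MYH11 10.18, 9.03 and 9.99. TNNT2, the cardiac troponin, read 3.04 and 2.94, below the lower quartile of probe sets.

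Of 10 theca and stroma markers none rose and NR2F2 fell, 10% of the list, where 15.4% of all named genes were called. Array means were 6.16 to 6.72 in large-follicle arrays and 6.30 to 6.89 in small-follicle arrays. Differences were positive in 3 of the 10. PDGFRA, uncalled, differed by 1.37 at its brightest probe set (limma, adjusted p = 0.0683) and by 0.07 and -0.06 at the dimmer ones. COL1A2, also uncalled, differed by -1.08 (adjusted p = 0.054). Of 8 endothelial markers none rose and FLT1 and TEK fell, 25% of the list. Their means were 3.99 to 4.15 and 3.99 to 4.24, and KDR lay at 2.68 and 2.64. Of 13 leukocyte markers, CORO1A and LCP1 rose and none fell, a share of 15.4%, as among all named genes. Their means were 4.44 to 5.41 and 4.16 to 4.68 over the 13 markers, while PTPRC, the pan-leukocyte marker, lay at 3.57 and 3.49. All 13 leukocyte differences were positive, with a median of 0.51, among them CD14 at 1.02, CD68 at 0.79 and LAPTM5 at 0.74, none of these 3 called. CD14, CD68 and LAPTM5 were each highest in large-follicle replicate 1. NT5E, ARHGAP18 and GADD45A were highest in that array too, while ANKRD1, DLC1, F3, TAGLN and CNN1 were highest in large-follicle replicate 3. The theca and stroma, endothelial and leukocyte means overlapped between the groups. Of 7 ovarian surface epithelium markers KRT18 rose and none fell, 14.3% of the list. The mean of 5.11 to 5.36 in large-follicle arrays lay above that of 4.89 to 5.01 in small-follicle arrays. It leans on KRT18, which differed by 1.91. Differences were positive in 5 of the 7, with a median of 0.12. KRT19 lay at 3.80 and 3.68 and EPCAM at 2.32 and 2.41. None of 7 oocyte markers (3.84 to 3.92 and 3.73 to 3.99) and none of 5 erythrocyte markers was called. The part of other cells in the ANKRD1 and DLC1 differences was not tested.

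Array by array, ANKRD1 and DLC1 were both highest in large-follicle replicate 3, and CCN2 was too. In the small-follicle arrays they parted: ANKRD1 was highest in replicate 2 and DLC1 in replicate 3. CCN1 was highest in small-follicle replicates 2 and 3. Over the 6 arrays the Pearson correlation with the brighter ANKRD1 probe set was 0.982 for its second probe set, 0.934 for DLC1, 0.612 for CCN2 and -0.593 for CCN1. These are descriptions over arrays that fall into 2 groups, so any gene with well separated groups scores high.

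The genes most like the brighter ANKRD1 probe set, among 1326 probe sets that span at least 1 log2 unit, were INHBA at 0.993, TRIM25 at 0.992, CRABP2 at 0.992, TPRN at 0.991 and CDKN1A at 0.989, and 89 of the 1326 exceeded 0.95. INHBA, a subunit of activin, read 14.06, 14.04 and 14.11 in large-follicle arrays, against 12.83, 13.09 and 12.86 in small-follicle arrays. CDKN1A, the cell cycle inhibitor p21, read 9.20, 9.37 and 9.48 in large-follicle arrays, against 7.18, 7.38 and 7.19 in small-follicle arrays. CRABP2, which carries retinoic acid, read 7.71, 7.79 and 7.88 in large-follicle arrays, against 6.28, 6.69 and 6.44 in small-follicle arrays. Their likeness to ANKRD1 over these arrays is what chose them.

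**Figure D4:**
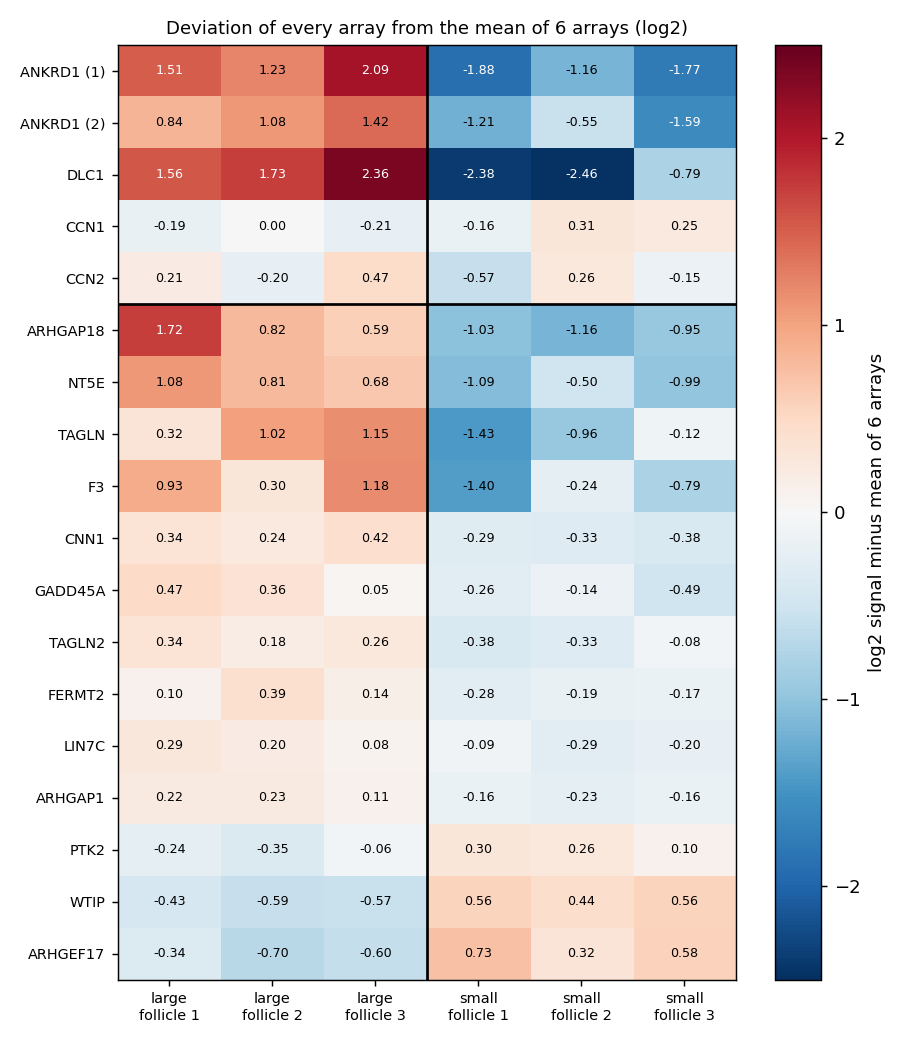
Heat map of each array's log2 signal minus the mean of 6 arrays, for the 5 probe sets of ANKRD1, DLC1, CCN1 and CCN2 (above the line) and the pathway genes named in the text and called in limma (below it), with large-follicle arrays left of small-follicle arrays. Red is above and blue below the mean, and ANKRD1 (1) is the brighter probe set. The CCN1 and CCN2 rows stay between -0.57 and 0.47, and some called genes are as pale, such as LIN7C (-0.29 to 0.29).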

How the data were processed

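Pooled cumulus cell RNA was measured on 6 Affymetrix bovine arrays, 3 of large and 3 of small follicles. Per the submitters' processing notes the authors used RMA, and the deposited table holds log2 signals per probe set. The settings of RMA are not known here. Of 24128 probe sets, 112 controls were left out. Among the rest, 13292 carry 1 symbol, 86 several and 10638 none in the platform annotation, and 13263 were matched by gene identifier to RefSeq, which changed 1 symbol.

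Differences were fitted with limma 3.58.1 (R 4.3.3, lmFit and eBayes, 2-sided, no covariate) and Benjamini-Hochberg adjustment over 24016 probe sets at 0.05, after the procedure was tested on simulated data. No filter was set on low values. A fold is 2 to the power of the log2 difference, and array number limits the precision. Gene lists were counted at each gene's brightest probe set, by mean over all arrays, without ANKRD1 and DLC1.

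The genes and lists were chosen with earlier results of these data known. The rule for named genes took every probe set of the set, up to 4 called genes of each pathway list with the smallest p and up to 2 uncalled ones with the largest difference, the 5 genes most correlated with ANKRD1, and for cell types 2 genes with the smallest p and the defining markers. ASAP1, NUAK2, TGFB2, MYOF, IGFBP3, TEAD2, LATS1 and MAP4K3 were named after their values were seen. So were SRF, CTNNA1, CD14, CD68, LAPTM5, PDGFRA and the second and further probe sets of a gene. Alternatives were a replicate block, 3 scalings, 2 filters, array weights, a trended prior, the 3'-minus-5' index, a stricter threshold, the mean of all probe sets of a gene, and leaving out each array. A pathway list that enters the counts over all lists is not reported here. Figures were drawn with matplotlib 3.10.9.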

Additional observations from a re-analysis of the deposited data

How the results depend on the processing

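CCN1 and CCN2 stayed uncalled in every alternative run, and the brighter ANKRD1 probe set kept a difference of 2.97 to 3.44 and DLC1 one of 2.68 (3'-minus-5' index as covariate) to 4.30. The filter at the median of probe set means left out DLC1 and the dimmer ANKRD1 probe set. Over all probe sets, calls numbered 99 higher and 116 lower with the index as covariate, 528 and 535 at a threshold of 0.01, and between 787 and 1142 higher and 828 and 1337 lower with single arrays left out. With array weights they numbered 1767 and 2302, the most of any alternative. Over the pathway lists, genes called higher numbered 12, against 1 with the index, 3 at the threshold of 0.01 and 6 to 8 with single arrays left out, and genes called lower 5, against 1 with the index and 4 to 6 with single arrays left out. Across all alternatives they ranged from 1 to 14 higher and from 1 to 7 lower. Of YAP targets 3 were higher, against 1 with the index, 1 at 0.01 and 2 to 3 with single arrays left out, and 1 was lower, against 0 with the index (ARHGEF17 read -0.91, adjusted p = 0.0956). The most YAP targets called higher in any alternative was 4. The index moves with the groups and the cause was not tested. The sign turned for the brighter PALS1 probe set, at -0.0102 with array weights and between -0.0183 (small-follicle replicate 3 left out) and 0.11 with single arrays left out, -0.005 among these (large-follicle replicate 3). It also turned for the brighter STK3 probe set, which lay between -0.2317 and 0.0783 (large-follicle replicate 3) with single arrays left out. All of these were uncalled. Deviations from group means correlated at -0.002, -0.054 and -0.343 between same-numbered arrays. Whether an equal replicate number marks a pair is not known here, and 3 arrays per group are too few to settle it. The replicate block called 930 probe sets higher and 1034 lower, against 1374 and 1720 without it. The 3 arrays per group and no detection calls limit low signals such as DLC1 in small follicles.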
